A study of Homo sapiens with 8 samples.

Results

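The genes described here are those on the short arm of human chromosome 12 whose RNA and ribosome footprints were both measured. A gene was a member if it was listed in the deposited translation efficiency (TE) table and met a limit on position. The first start position listed for it in the deposited count table had to lie on chromosome 12 before position 35000000 of hg38. Of the 11244 genes in the TE table, 134 met that position, 10 of them, among them GAPDH, LDHB and MGST1, were left out by name, and 124 remained. The region was picked because input RNA from it was lower in METTL5-KO than in METTL5-WT, so the input changes given here describe how the members were chosen and were not read as a test. All 124 members were protein coding, and 72 lay on the plus strand. The same region held 853 genes of the count table, of which 457 had a count in some input library, and 134 of its 289 protein-coding genes were in the TE table.

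The libraries came from cells labelled HepG2, an established line derived from a human liver cancer. In METTL5-WT cells METTL5 was intact, and in METTL5-KO cells it had been disrupted by CRISPR-Cas9 with a pair of guides that cut out exons. METTL5 is the methyltransferase that places N6-methyladenosine on 18S ribosomal RNA. Cells of both genotypes were treated with cycloheximide, which stalls ribosomes on mRNA. A smaller share of each lysate gave the input RNA, while micrococcal nuclease trimmed the remainder to ribosome-protected fragments (RPF). There were 2 libraries of each kind for each genotype, 8 in all, and the input and RPF library of the same number came from 1 lysate. Per the study, the METTL5-WT and METTL5-KO cells were each grown from an isolated clone, and the sources used here do not say which clone gave each replicate. A difference between clones and a difference between genotypes therefore cannot be told apart, and the p-values below measure only the spread between these libraries.

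Input totals were 11211608 and 10710226 counts for METTL5-WT against 12672012 and 15307257 for METTL5-KO. RPF reads in the TE table were 3970779 and 4592443 for METTL5-WT against 8626705 and 9255921 for METTL5-KO. Depth of the RPF libraries thus differed by genotype, with both METTL5-WT libraries the shallower. METTL5 itself went from 490 and 542 input counts to 208 and 151 in the METTL5-KO libraries, and its RPF reads fell from 158 and 226 to 41 and 21. The libraries did not carry the RNAs that define a hepatocyte or a HepG2 cell. The serum protein genes ALB, APOA1, SERPINA1, TF and APOB had between 0 and 4 counts in every input library, and AFP had 0 counts in both METTL5-WT libraries against 5 and 9 in the METTL5-KO libraries. The intermediate filament gene VIM, added after the planned markers, had between 12326 and 17631 counts. Of the fibroblast genes, COL1A1 had between 429 and 937 counts, PDGFRB between 52 and 83 and COL1A2 at most 1. The leukocyte genes PTPRC and CD3E had at most 1 count, and the endothelial genes PECAM1, CDH5 and VWF at most 9. The hepatocyte RNAs were at or near 0 in all 4 input libraries, so the cells are named below only by their label and genotype.

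A chromosome arm carries genes of many unrelated functions, most with a promoter of their own and some facing a neighbour across a shared one. The short arm of chromosome 12 is known for cell cycle and growth genes such as FOXM1 and CDKN1B, for a cluster of natural killer cell receptors and for many housekeeping genes. Neighbouring genes share the copy number of their segment of DNA, which was not measured in this series.

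Values per library below are the reads of a gene divided by a size factor of the library. Changes are log2 fold changes of METTL5-KO over METTL5-WT (n = 2 libraries a genotype). Where a single gene is named, RPF and TE changes are given ± the standard error of the limma fit. Input changes are given ± an approximate standard error, the absolute change divided by the square root of the edgeR F statistic.

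Input RNA from the short arm was lower in both METTL5-KO libraries. Of the input reads in the TE table, the members took 0.955% and 0.961% in the METTL5-WT libraries and 0.644% and 0.614% in those of METTL5-KO. Relative to the METTL5-WT mean, the median member stood at -0.55 and -0.57 on the log2 scale in the METTL5-KO input libraries, and the METTL5-WT libraries stood at -0.0064 and 0.0064. Both METTL5-KO libraries lay below both METTL5-WT libraries for 100 of the 124 members, where 31.4% of all genes in the TE table did so. Both lay above for 5 members, where 31.9% of all genes did so.

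In the fit of input counts with edgeR's quasi-likelihood method, 122 members passed the filter on low counts, and MFAP5 and DDX47 did not. The median log2 fold change of the 122 was -0.56, which puts METTL5-KO at 67.9% of METTL5-WT. The median over all genes of the TE table was -0.0097. Of the 122 members, 113 had a value below 0, 75 were called lower and 1 was called higher at a Benjamini-Hochberg adjusted p under 0.05. Among all 14054 genes tested, 50.5% had a value below 0, 10.6% were called lower and 11.8% higher. Without METTL5-WT replicate 1 or 2, the median of the members was -0.577 or -0.552, against 0.00887 or 0.0145 over all genes tested. Since this contrast chose the region, nothing is read from these counts and medians. In bulk RNA, fewer cells that express a gene and less RNA per cell cannot be told apart.

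**Figure D1:**
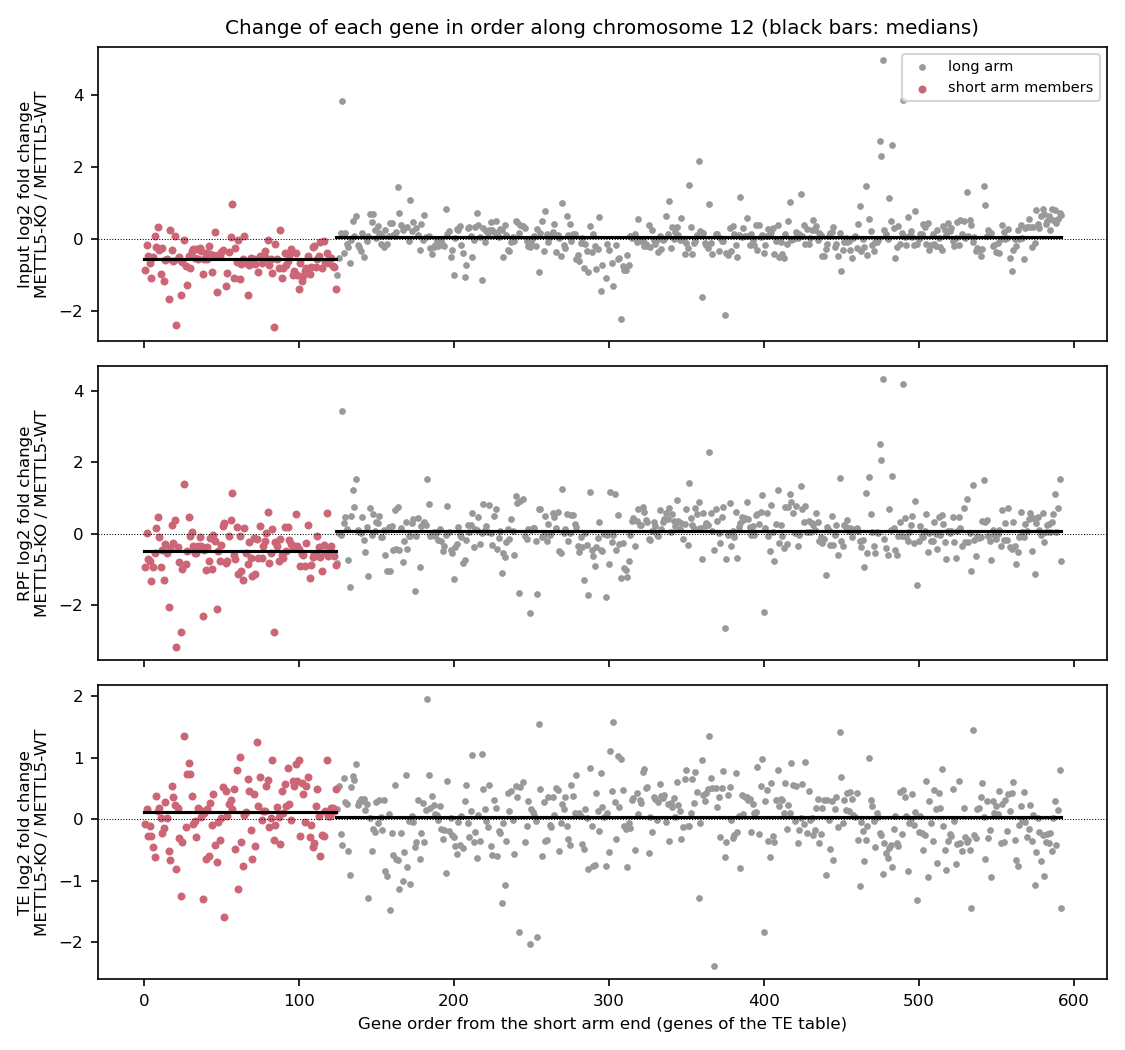
Log2 fold change of METTL5-KO over METTL5-WT for each gene of the TE table on chromosome 12, in order from the end of the short arm, for input, RPF and TE; each point is 1 gene and black bars are the medians of the short arm members and of the long arm. The short arm medians lie at -0.56 in input, -0.48 in RPF and 0.12 in TE, and the long arm medians at 0.06, 0.07 and 0.04.

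The fall was spread along the whole arm. In consecutive windows of 5 megabases from the end of the arm, the median input change of the members was -0.48 (20 genes), -0.46 (37), -0.57 (26), -0.68 (6), -0.67 (8), -0.80 (14) and -0.55 (13). In the last 3 of these windows every gene with a value lay below 0. On the long arm, the first windows past the limit had medians of -0.18 (4 genes), -0.04 (9) and 0.19 (43), and all 459 long arm genes with a value had a median of 0.06. The long arm was not even, with window medians from -0.18 in the first to 0.54 in the last (22 genes, 2 below 0). Neighbouring long arm genes from ATP23 to SRGAP1 all lay below 0 in input, from -0.44 (RXYLT1) to -2.23 (SLC16A7). Medians of whole chromosomes were lowest on chromosome 20, at -0.47, and on chromosome 16, at -0.24, so the short arm of chromosome 12 was not the only region with a low median.

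The genes nearest to the limit were compared across it. Just inside it were YARS2, the mitochondrial tyrosyl-tRNA synthetase, with an input log2 fold change of -0.76 ± 0.15, PKP2, a desmosome plaque protein, at -0.77 ± 0.14, and ALG10, a glucosyltransferase of N-glycan assembly, at -1.40 ± 0.19. Just outside it, on the other side of the centromere, were ALG10B, a close copy of ALG10, at -0.99 ± 0.14, CPNE8, a calcium-dependent membrane-binding protein, at -0.54 ± 0.13, and KIF21A, a kinesin motor, at 0.17 ± 0.12. ALG10B had METTL5-WT values of 447 and 492 against METTL5-KO values of 259 and 219, CPNE8 had METTL5-WT values of 693 and 758 against METTL5-KO values of 564 and 445, and KIF21A had METTL5-WT values of 799 and 767 against METTL5-KO values of 960.3 and 822. The first 2 of these long arm genes were thus below METTL5-WT in both METTL5-KO libraries, and KIF21A was above it in both. Reads of ALG10 and ALG10B may be hard to tell apart because the copies are alike.

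The size of the fall varied less among well-expressed members. The 62 members at or above the median input value of all members had changes from -1.40 to -0.04, all 62 below 0, with a median of -0.57 and an interquartile range of 0.35. In the other genes of the TE table at or above the same value, 54.0% of 6123 lay below 0 and the interquartile range was 0.40. The 60 tested members below that value had a similar median of -0.50, an interquartile range of 0.74 and a range from -2.46 to 0.99. Members on the plus and minus strands had medians of -0.57 and -0.55. Of all 122 members, 86 had an input change between -1 and -0.2, 18 were at or under -1 and 18 were at -0.2 or above. The changes in the 2 METTL5-KO libraries against the same METTL5-WT mean had a Pearson r of 0.81 over the 122 members, and those values share their baseline.

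**Figure D2:**
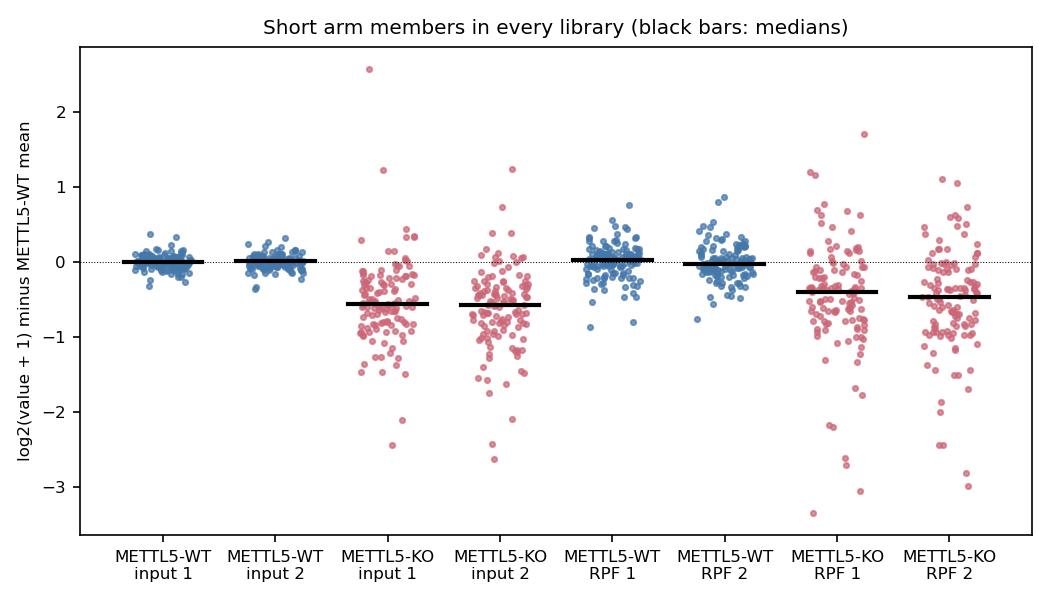
Value of each of the 124 short arm members in each library, as log2(value + 1) minus the METTL5-WT mean of the same kind of library; points are genes and black bars are medians. The medians of the METTL5-KO input libraries lie at -0.55 and -0.57 and those of the METTL5-KO RPF libraries at -0.40 and -0.46, below the METTL5-WT medians near 0.

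Divergently transcribed neighbours were compared within pairs. In 12 pairs of members the starts lay within 1 kb of each other on opposite strands. The input changes within a pair differed by 0.09 (RECQL and GOLT1B) to 0.92 (FOXM1 and RHNO1) on the log2 scale. The interquartile range over all tested members was 0.48, and whether pairs were closer than other members was not tested. FOXM1, a transcription factor of mitosis, stood at -0.25 ± 0.11, RHNO1, which acts in checkpoint signalling after DNA damage, at -1.17 ± 0.16, and TULP3, a ciliary trafficking protein that starts at the same end of FOXM1 and inside the span of RHNO1, at -0.58 ± 0.14. KDM5A and CCDC77, whose annotated starts overlap, stood at -0.87 ± 0.12 and -0.16 ± 0.15. Only 1 of the genes in these pairs, KLRG1, had an input value above 0, at 0.06 ± 0.37.

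The DNA between the starts is shown for 3 of these pairs, those in which RefSeq promoters of both genes were given (7 of the 12) and a stretch of at least 20 bases lay outside both genes in RefSeq and in the count table and within the promoter window of the plus strand gene (GRCh38.p14, plus strand, 5′ to 3′). RECQL and GOLT1B differed least, INTS13 and FGFR1OP2 were both among the lowest, at -1.16 ± 0.12 and -1.02 ± 0.15, and PHB2 and EMG1 differed by 0.49. Capitals mark the CCAAT box or its reverse complement ATTGG.
RECQL and GOLT1B, chr12:21501670-21501780, 111 bases, 48.6% GC: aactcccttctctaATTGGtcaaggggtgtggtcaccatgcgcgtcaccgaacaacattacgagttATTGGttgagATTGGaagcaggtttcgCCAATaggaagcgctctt
INTS13 and FGFR1OP2, chr12:26938327-26938469, 143 bases, 61.5% GC: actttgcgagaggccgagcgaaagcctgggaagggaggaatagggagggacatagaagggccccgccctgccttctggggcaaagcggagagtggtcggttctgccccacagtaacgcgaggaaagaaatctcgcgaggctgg
PHB2 and EMG1, chr12:6970781-6970912, 132 bases, 51.5% GC: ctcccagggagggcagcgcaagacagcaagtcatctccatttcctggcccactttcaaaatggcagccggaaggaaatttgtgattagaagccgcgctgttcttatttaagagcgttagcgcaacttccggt
The stretch between RECQL and GOLT1B held 4 CCAAT boxes over both strands, and those letters are not in the other 2 stretches. The letters TATAAA are in none of the 3. Within 250 bases upstream of the start, on either strand, CCAAT stood in 37.1% of the 89 members with a RefSeq promoter and in 33.0% of 27305 promoters in all, and TATAAA in 4.49% and 11.1%. The 27305 promoters were not limited to genes of the TE table, so the sets are unlike and the differences were not tested.

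**Figure D3:**
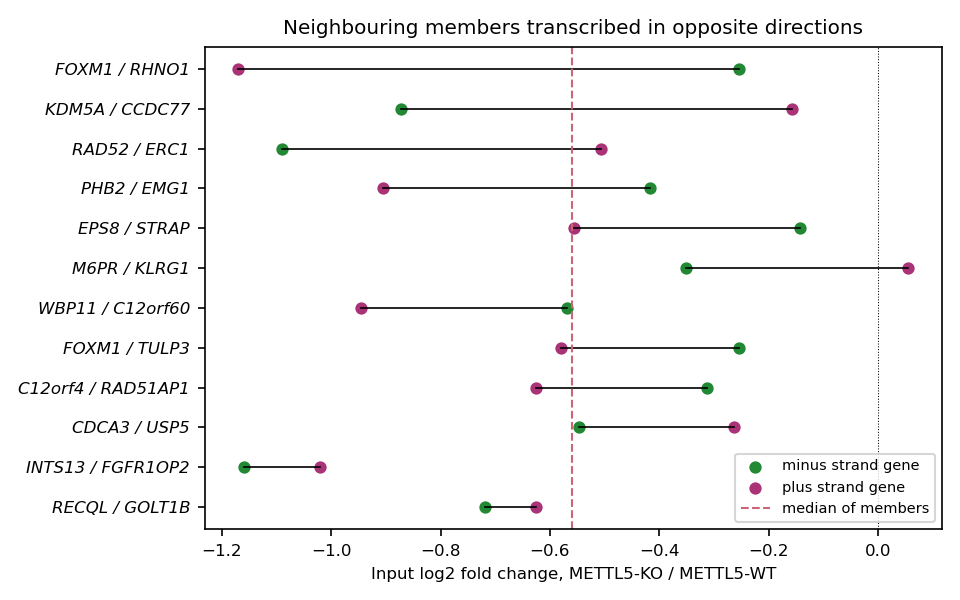
Input log2 fold change of METTL5-KO over METTL5-WT for the 12 pairs of members transcribed in opposite directions from starts within 1 kb; each row is a pair and the dashed line is the median of all members. The pairs differ by 0.09 to 0.92, and 1 gene of the pairs, KLRG1, lies above 0.

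The RPF libraries were examined next. They came from the same lysates as the input that chose the region, so RPF is another readout and not an independent sample. Of the RPF reads in the TE table, members took 0.806% and 0.786% in METTL5-WT against 0.542% and 0.543% in METTL5-KO. The median RPF log2 fold change of the 124 members was -0.48, or 71.7% of METTL5-WT, against 0.02 over all genes and 0.07 on the long arm. Of the 124, 101 lay below 0, where 48.0% of all genes did. In the limma fit of the RPF values on the log2(value + 1) scale, 46 members were called lower and 3 higher, against 10.7% and 13.8% of all 11240 genes tested. The edgeR quasi-likelihood test on the reads recovered from those values also called these 46 and 3, in the same direction, where 10.7% and 13.1% of all genes were called by both. RPF libraries of the 2 genotypes did not overlap for 78 members that were lower, where 29.0% of all genes were, and for 9 that were higher, where 32.4% were. The count of 46, among 1198 of all genes, was 31 or 30 without METTL5-KO replicate 1 or 2 (among 677 or 665) and 5 without a variance trend in the fit (among 121). On this scale the changes of genes with low values are understated. For 70 members both METTL5-KO libraries were below both METTL5-WT libraries in input and also in RPF. The share of all genes that were lower in both readouts was not computed. It was 31.4% in input and 29.0% in RPF taken apart, so nothing is read from the 70.

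Input and RPF moved the same way for most members. Of the 122 members with both values, 96 were below 0 in both, 17 were below 0 in input and above 0 in RPF, 4 the reverse, and 5 were above 0 in both. The Pearson r of the input and RPF changes over these 122 genes was 0.69, with both values resting on the same lysates. Neither that r nor the counts moving together were computed over all genes, so nothing particular to the members is read from them.

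**Figure D4:**
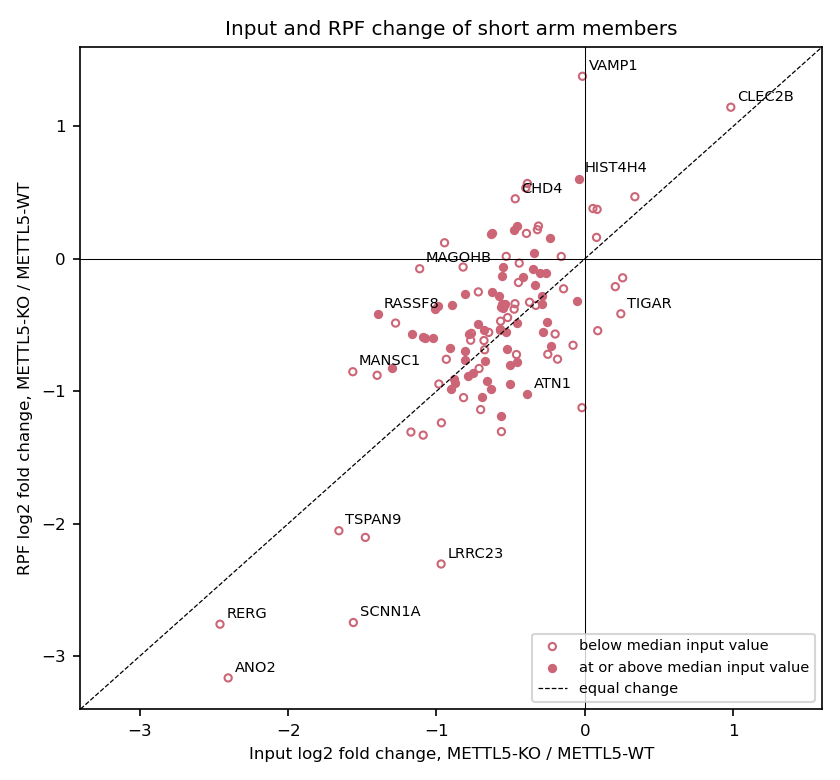
RPF against input log2 fold change of METTL5-KO over METTL5-WT for 122 short arm members, with open points for members below the median input value and filled points for the rest; the dashed line marks equal change. Of the points, 96 lie below 0 on both axes, RERG and ANO2 lie farthest down in both, and CLEC2B lies highest in input.

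A few members fell much further than the arm as a whole. RERG, a Ras-like GTPase linked to growth inhibition (chromosome 12, 15107783 to 15348675, minus strand), had METTL5-WT values of 293 and 301 against METTL5-KO values of 54.3 and 54.7. Its input log2 fold change was -2.46 ± 0.17, and its RPF values went from 95.0 and 122 to 15.7 and 14.5, a change of -2.76 ± 0.42 (adjusted p = 1.84e-04 by limma). ANO2, a calcium-activated chloride channel (5531869 to 5946232, minus strand), had METTL5-WT values of 130.0 and 140.0 against METTL5-KO values of 30.7 and 21.1. Its input change was -2.40 ± 0.24 and its RPF change was -3.16 ± 0.30 (adjusted p = 1.36e-06 by limma), the largest RPF fall among the members with a mean value of at least 10. Neither gene overlapped between genotypes in input or RPF.

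SCNN1A, the alpha subunit of the epithelial sodium channel, had METTL5-WT values of 50.4 and 48.3 against METTL5-KO values of 19.9 and 14.1, and its RPF change was -2.75 ± 0.52 (limma adjusted p = 0.00121). TSPAN9, a tetraspanin, changed by -1.66 ± 0.43 in input and -2.05 ± 0.66 in RPF (limma adjusted p = 0.0314), with METTL5-WT values of 26.6 and 27 against METTL5-KO values of 9.04 and 8.03 in input. CLSTN3, a calsyntenin of the postsynaptic membrane, changed by -1.48 ± 0.32 and -2.10 ± 0.44 (limma adjusted p = 0.0023). These 3 genes were at low values in both genotypes and fell in both readouts. MANSC1, a membrane protein, stood at -1.56 ± 0.31 in input and at -0.85 ± 0.42 in RPF, where it did not pass (limma adjusted p = 0.157). ALG10 stood at -0.88 ± 0.38 in RPF (limma adjusted p = 0.105). LRRC23, a protein of the ciliary and sperm axoneme, changed by -2.30 ± 0.54 in RPF (limma adjusted p = 0.0055), and 18.4% of its exon bases lie in another gene of the same strand.

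Members called higher were few, at 1 in input and 3 in RPF, where 11.8% and 13.8% of all genes tested were. Without regard to calls, 17 members below 0 in input lay above 0 in RPF. CLEC2B, a C-type lectin of the natural killer gene complex (9852984 to 9870136, minus strand), was the only member called higher in input. It had METTL5-WT values of 123 and 132 against METTL5-KO values of 299 and 211, a change of 0.99 ± 0.17, and in RPF it had METTL5-WT values of 102 and 54.1 against METTL5-KO values of 171 and 161, a change of 1.15 ± 0.32 (limma adjusted p = 0.0147). In both readouts METTL5-KO lay above METTL5-WT in both libraries. The RPF change was 0.693 to 1.6 with 1 library left out, and it did not pass without METTL5-KO replicate 1, METTL5-KO replicate 2 or METTL5-WT replicate 2 (limma adjusted p = 0.103, 0.0682 and 0.0508). The preceding member on the arm, KLRG1, a receptor of lymphocytes, had only METTL5-WT values of 20.4 and 22 against METTL5-KO values of 23.5 and 21.1.

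The other members with the highest input changes were not called. DCP1B, a cofactor of mRNA decapping, stood at 0.34 ± 0.37, PLEKHA5, a pleckstrin homology protein, at 0.26 ± 0.25, TIGAR, a fructose bisphosphatase that p53 induces, at 0.24 ± 0.30, C1RL, a serine protease related to complement C1r, at 0.21 ± 0.28, and FBXL14, a ubiquitin ligase subunit, at 0.09 ± 0.21. Their input values were low, and for PLEKHA5 and FBXL14 the genotypes overlapped. The value of FBXL14 lay below 0 without METTL5-KO replicate 2 (-0.266), without METTL5-WT replicate 1 (-0.107) and with the GC trend removed (-0.102). TIGAR and C1RL share 18.1% and 13.5% of their exon bases with another gene of the same strand, and featureCounts by default drops reads that fall in both genes. MFAP5, a microfibril protein, had 1 and 1 input reads in the METTL5-WT libraries against 15 and 6 with METTL5 lost, too few for a fold change.

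Of the members with the highest RPF changes, HIST4H4, a histone H4 gene, had METTL5-WT values of 915 and 981 against METTL5-KO values of 1459 and 1426 and rose by 0.61 ± 0.11 (limma adjusted p = 6.53e-04). Its input, with METTL5-WT values of 627 and 703 against METTL5-KO values of 608 and 695, overlapped. VAMP1, a vesicle SNARE of the synapse, stood at 1.38 ± 0.49 in RPF, which did not pass (limma adjusted p = 0.0526), with METTL5-WT values of 16.6 and 52.1 against METTL5-KO values of 98.9 and 62.4. RESF1, which acts in silencing of retroelements, and ETFRF1, which regulates the electron transfer flavoprotein, stood at 0.57 ± 0.46 and 0.54 ± 0.51 in RPF and did not pass either. The third gene called higher in RPF was CHD4.

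Grouped by function, the members had a median below 0 in input and in RPF in each of 6 groups. Over the whole arm 92.6% of tested members were below 0 in input, the readout that chose them, and 81.5% in RPF. The counts below 0 in each group are therefore given as a description and are not read as results about a function. Over the whole arm 37.1% of members were called lower in RPF, against 10.7% of all genes tested. Among 9 cell cycle and DNA repair genes, all 9 were below 0 in both input and RPF, with medians of -0.56 and -0.50, and 5 were called lower in RPF. NCAPD2, a condensin subunit, had METTL5-WT values of 2063 and 2019 against METTL5-KO values of 1175 and 1269.6 and changed by -0.75 ± 0.11 in input and -0.86 ± 0.10 in RPF (limma adjusted p = 1.35e-05). RAD52, which acts in homologous recombination, changed by -1.09 ± 0.23 and -1.33 ± 0.31 (limma adjusted p = 0.0053), and FOXM1 changed by -0.47 ± 0.13 in RPF (limma adjusted p = 0.0134). CDKN1B, which encodes the CDK inhibitor p27, stood at -0.56 ± 0.12 in input and at -0.13 ± 0.11 in RPF, where it did not pass.

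Among 16 chromatin and transcription genes, 15 were below 0 in input and 13 in RPF. In RPF 6 were called lower and 1 higher, where 10.7% and 13.8% of all genes were. KDM5A, a histone H3K4 demethylase and the first member on the arm, had METTL5-WT values of 908 and 959.9 against METTL5-KO values of 550.4 and 479, and changed by -0.87 ± 0.12 in input and -0.94 ± 0.14 in RPF (limma adjusted p = 1.18e-04). INTS13, a subunit of the Integrator complex, changed by -1.16 ± 0.12 and -0.57 ± 0.13 (limma adjusted p = 0.00461), and ATF7IP, a partner of the H3K9 methyltransferase SETDB1, stood at -0.34 ± 0.12 and -0.20 ± 0.13. ETV6, an ETS-family repressor, was the member of this group above 0 in input, at 0.08 ± 0.17, with METTL5-WT values of 126 and 156 against METTL5-KO values of 155 and 146.

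Of 10 RNA processing and translation genes, 9 had an input change, of which 8 were below 0. In RPF 9 of the 10 were below 0 and 6 were called lower (10.7% of all genes were). STRAP, which acts in assembly of the SMN complex, had METTL5-WT values of 3491 and 3555 against METTL5-KO values of 2464 and 2372 and changed by -0.56 ± 0.11 and, in RPF, -0.34 ± 0.10 (limma adjusted p = 0.0164). EMG1, a pseudouridine N1-methyltransferase of 18S rRNA, changed by -0.90 ± 0.12 and -0.99 ± 0.16 (limma adjusted p = 4.03e-04). YBX3, a cold-shock domain protein that binds mRNA, had METTL5-WT values of 2259 and 2264 against METTL5-KO values of 1135 and 1064 in RPF and changed by -0.69 ± 0.13 in input and -1.04 ± 0.10 in RPF (limma adjusted p = 1.69e-06). NOP2, a nucleolar methyltransferase of large-subunit rRNA, had METTL5-WT values of 2528 and 2749.5 against METTL5-KO values of 1849.9 and 1918 in RPF. Its input was far lower, with METTL5-WT values of 31.3 and 27.7 against METTL5-KO values of 10.8 and 13.6, and 54.4% of its exon bases lie in another gene of the same strand.

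Among 19 signalling genes, all 19 were below 0 in input and 17 in RPF. In RPF 10 were called lower, where 37.1% of all members and 10.7% of all genes were. WNK1, a kinase that controls ion cotransporters, had METTL5-WT values of 4342 and 4514 against METTL5-KO values of 2931 and 2686 and changed by -0.67 ± 0.11 and -0.77 ± 0.10 (limma adjusted p = 3.38e-05). PDE3A, a cyclic nucleotide phosphodiesterase, changed by -0.81 ± 0.12 and -0.69 ± 0.12 (limma adjusted p = 7.35e-04), and CD9, a tetraspanin, by -0.57 ± 0.12 and -0.36 ± 0.10 (limma adjusted p = 0.0182).

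Of 19 genes of membrane traffic, organelles and protein turnover, 17 were below 0 in input and 15 in RPF, with medians of -0.35 and -0.28. In RPF 4 were called lower, where 37.1% of all members and 10.7% of all genes were. PHB2, a prohibitin of the inner mitochondrial membrane, had METTL5-WT values of 2158 and 2097 against METTL5-KO values of 1515 and 1697 and stood at -0.42 ± 0.12 in input and -0.14 ± 0.09 in RPF. FKBP4, an HSP90 cochaperone, stood at -0.30 ± 0.11 and -0.11 ± 0.09, and neither passed in RPF. DNM1L, the GTPase of mitochondrial fission, changed by -0.53 ± 0.12 and -0.34 ± 0.11 (limma adjusted p = 0.0368).

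Among 11 genes of metabolism and small-molecule transport, 10 were below 0 in input and 9 in RPF. In RPF 3 were called lower, where 37.1% of all members and 10.7% of all genes were. BCAT1, the cytosolic branched-chain aminotransferase, had METTL5-WT values of 4731 and 4903 against METTL5-KO values of 2775 and 2443 and changed by -0.90 ± 0.12 in input and -0.35 ± 0.10 in RPF (limma adjusted p = 0.0215). SLC2A3, the glucose transporter GLUT3, changed by -0.46 ± 0.13 and -0.78 ± 0.24 (limma adjusted p = 0.0271), although reads may be shared with its close copy SLC2A14. ETNK1, an ethanolamine kinase, stood at -1.01 ± 0.14 in input and -0.38 ± 0.20 in RPF, where it did not pass. The groups were drawn up with earlier results of these data known, and differences between them were not tested.

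TE, the RPF value relative to the input value, was compared between the genotypes last. Because input enters TE with the opposite sign, TE of genes chosen through input is not independent of the choice. The median TE log2 fold change of the 124 members was 0.12, against 0.02 over all genes and 0.04 on the long arm. Of the 124, 49 lay below 0 (39.5%), where 48.2% of all genes did. Without METTL5-WT replicate 2 the median of the members was 0.0191 and that of all genes 0.0198, and with the trend on GC content removed they were 0.065 and 0.0215. In the limma fit of the interaction between genotype and library type, 5 members were called higher and 1 lower, where 2.7% and 2.08% of all 11240 genes were called, and edgeR also called these 6, where 2.65% and 2.06% were called by both. With the lysate as a replicate block, 8 members were called higher and 1 lower, among 469 and 325 of all genes. Leaving out any 1 lysate left between 0 and 2 members called higher and 0 called lower, among 4 to 152 and 0 to 114 of all genes. Of the 6 genes, RASSF8 alone was called in any of these fits (without METTL5-WT replicate 2, limma adjusted p = 0.026). The Pearson r of TE and input change over 122 members was -0.02. The Pearson r of TE change and coding GC content was -0.41, and the median TE change was 0.23 in the 62 members below the median GC content and 0.01 in the 62 others. With the trend on GC content over all genes removed, 3 members were called higher and 0 lower, among 209 and 92 of all genes. These 3 were HEBP1, HIST4H4 and CDKN1B, and CDKN1B had not been called before (TE change 0.58, limma adjusted p = 0.0483).

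The TE call with the largest rise was MAGOHB, a core protein of the exon junction complex that has a close copy, MAGOH, on another chromosome. MAGOHB had METTL5-WT values of 339.7 and 291 against METTL5-KO values of 159 and 137, a change of -1.11 ± 0.15, while RPF showed METTL5-WT values of 318 and 289 against METTL5-KO values of 277 and 299, a change of -0.07 ± 0.17. Its TE change was 1.02 ± 0.24 (limma adjusted p = 0.0239). RASSF8, a Ras-association domain protein, had METTL5-WT values of 1088 and 1093 against METTL5-KO values of 470.2 and 367 in input, a change of -1.40 ± 0.13, and METTL5-WT values of 138 and 203 against METTL5-KO values of 133 and 117 in RPF. Its TE change was 0.97 ± 0.26 (limma adjusted p = 0.043). In both genes the input value was lower in METTL5-KO by more than the RPF value was.

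HEBP1, a heme-binding protein, had METTL5-WT values of 798 and 732 against METTL5-KO values of 924 and 859 in RPF and METTL5-WT values of 357 and 412 against METTL5-KO values of 274 and 284 in input, with a TE change of 0.68 ± 0.18 (limma adjusted p = 0.0412). HIST4H4 rose in TE by 0.64 ± 0.16 (limma adjusted p = 0.0349), and reads of histone H4 genes may be shared among their copies. After the GC trend was removed, HEBP1 and HIST4H4 were still called (limma adjusted p = 0.0409 and 0.00443), whereas MAGOHB, RASSF8 and CHD4 were not (limma adjusted p = 0.0803, 0.106 and 0.0648). CHD4, the ATPase of the NuRD complex, had METTL5-WT values of 535 and 545 against METTL5-KO values of 831 and 659 in RPF and METTL5-WT values of 136 and 165 against METTL5-KO values of 98.3 and 120.5 in input, with a TE change of 0.91 ± 0.25 (limma adjusted p = 0.0429), but 46.9% of its exon bases lie in another gene of the same strand, so its input value is uncertain. ATN1, the transcriptional corepressor atrophin 1, was the member called lower in TE. It had METTL5-WT values of 412 and 407 against METTL5-KO values of 333 and 300.2 in input and METTL5-WT values of 1249.6 and 1129 against METTL5-KO values of 580.1 and 589 in RPF, with a TE change of -0.65 ± 0.17 (limma adjusted p = 0.042), which was -0.33 with the GC trend removed (limma adjusted p = 0.314).

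**Figure D5:**
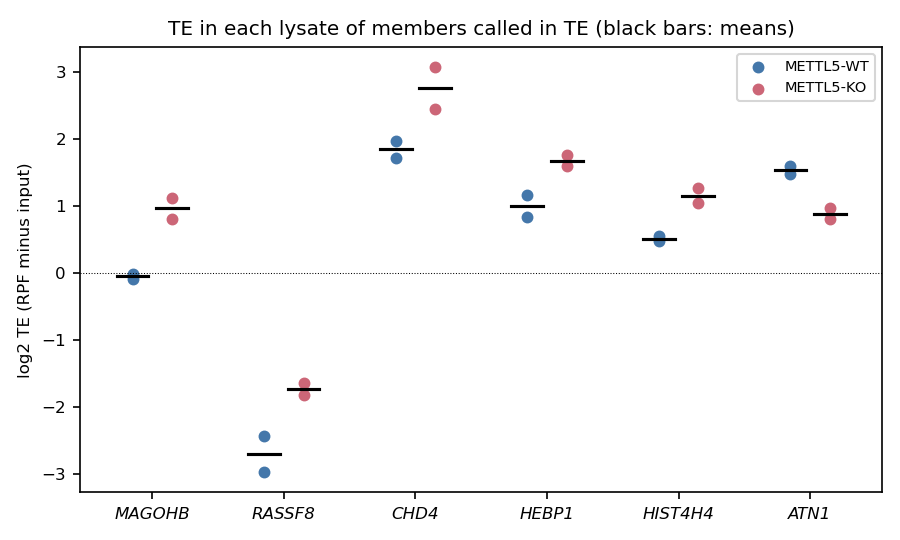
TE in each lysate, as log2(RPF value + 1) minus log2(input value + 1), for the 6 short arm members called in TE; points are lysates, 2 for each genotype, and black bars are means. The METTL5-KO lysates lie above both METTL5-WT lysates for MAGOHB, RASSF8, CHD4, HEBP1 and HIST4H4 and below them for ATN1.

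Genes of the same region that are not in the TE table were also lower in input at the median, with a wider spread. Of 56 that passed the filter in input, 37 were below 0, the median was -0.31 and the quartiles were -0.78 and 0.14, against -0.82 and -0.34 for the members. By the edgeR fit, 7 of the 56 were called lower (12.5%) and 2 higher (3.57%), and the share called lower was near the 10.6% of all genes tested.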

How the data were processed

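Ribosome profiling libraries, 4 input and 4 RPF, were analysed in 4 groups of 2 that the titles give. The authors trimmed reads with BBDuk, aligned input reads to hg38 with STAR 2.7.3a and counted uniquely mapped reads over exons by strand with featureCounts, and RPF reads went through rRNA removal and the RiboToolkit server. The deposited input table holds raw counts, and 3 lines of it that are broken pieces of an entry were left out, which leaves 60718 genes. The deposited TE table calls its values RPKM, but these signal values were whole reads divided by a size factor of the library in 100% of cases (tolerance 0.02 reads), so the reads were recovered. Its columns of the authors' own log2 fold changes and p-values hold the study's comparisons and were not used. The TE table lists only genes with reads in every library.

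Input was fitted with edgeR 4.0.16 (quasi-likelihood, TMM, filterByExpr) in R 4.3.3. RPF (4 libraries) and TE (8 libraries, interaction of genotype and library type) were fitted with limma 3.58.1 on log2(value + 1), with a variance trend, for genes with a mean of at least 1. Calls used a Benjamini-Hochberg adjusted p under 0.05 over all genes. The fits were also run on simulated data with changes larger than most given here and with 1 fixed spread. That run therefore does not measure how reliable the calls given here are. DESeq2 1.42.0 was an alternative. GC content came from GENCODE 44 coding sequences and promoters from RefSeq.

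Members and gene groups were chosen with earlier results of these data known. Genes named were, among members with a mean of at least 10 in both kinds of library, the 8 lowest and 6 highest in input, the 5 lowest and 5 highest in RPF, all TE calls, the 3 genes on each side of the position limit and the 3 most abundant members in input of each group. Others (RHNO1, TULP3, RAD52, CCDC77, KLRG1, ETV6, NOP2, MFAP5, DDX47, RECQL, GOLT1B and FGFR1OP2, and ATP23, SRGAP1, RXYLT1 and SLC16A7 of the long arm) were named after their values were seen. Input and RPF libraries of 1 number share a lysate per the protocol. Deviations of same-numbered libraries across 11240 genes had a Pearson r of -0.016 (METTL5-WT) and 0.053 (METTL5-KO) between input and RPF. Members had a median of 404 reads per input library and 108 per METTL5-WT RPF library, and precision was limited by that depth and by 2 replicates.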

Additional observations from a re-analysis of the deposited data

How the results depend on the processing

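The median changes of the arm kept their sign under all alternatives run. For input (-0.559), the median was -0.577 with the GC trend removed and -0.531 without a filter, and -0.577 to -0.552 when 1 library was left out. For RPF (-0.479) it was -0.469 to -0.394 with 1 library left out. For TE (0.115) it was 0.065 with the GC trend removed, alone or with the lysate as a replicate block, and 0.0191 to 0.165 with 1 lysate left out. The lowest of these was the fit without METTL5-WT replicate 2. Counts of calls moved more. The 75 members called lower in input became 43 without METTL5-WT replicate 1 and 41 without METTL5-WT replicate 2 (41 to 86 over the fits with 1 library left out), 89 with the GC trend removed and 67 with DESeq2. The 46 called lower in RPF became 30 to 46 with 1 library left out (30 without METTL5-KO replicate 2) and 5 without a variance trend, and the 3 called higher became 1 to 4 with 1 library left out (1 without METTL5-KO replicate 1) and 0 without that trend. In TE, 5 were called higher, among 304 of all genes. With the GC trend removed there were 3 (2 of the 5, and CDKN1B), among 209, and with quantile normalization 3, among 205. With edgeR there were 8, among 351, and with the replicate block on the lysate 8, among 469. Without a variance trend there were 0, among 1. The count of 1 called lower in TE, among 234 of all genes, was 0 with the GC trend removed (among 92, or 158 with the block). It was also 0 without a variance trend (among 0). A lone library left in a group was assumed to vary like the other groups, and the causes were not tested.

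The block on the shared number joined METTL5-WT and METTL5-KO libraries of 1 number, although the titles only number them and state no pairing. Deviations of same-numbered libraries of the 2 genotypes had a Pearson r of 0.039 in input and -0.002 in RPF. This block gave 81 lower input calls and 53 lower RPF calls among members, with medians of -0.562 and -0.479. Besides the TE count above, the blocks moved no count of calls by over 1.5 times, apart from the TE falls with the GC trend removed. Leaving out the 7 members that share 10 percent or more of their exon bases with another gene, an alternative chosen after seeing the data, gave medians of -0.559, -0.487 and 0.124. Of 150 single-gene RPF values and 96 single-gene TE values recomputed, 45 no longer passed, 6 newly passed and 1 changed sign: ETFRF1 in RPF, to -0.0845 without METTL5-KO replicate 1, against 1.16 without METTL5-KO replicate 2. Of 333 single-gene input values, given with no test, 3 changed sign, all of FBXL14. With 2 libraries a genotype, members with few reads could show only large changes.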

Other observations

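The 10 genes of the region left out by name were described by the same fits. Their input changes ranged from -8.57 to 1.08, 8 of 10 were below 0 and the median was -0.45, and their RPF and TE medians were -0.19 and 0.15.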
